A study of Mus musculus with 8 samples.

Results

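The core, linker and variant histone genes were examined in whole testes of Tex19.1-/- mice and of Tex19.1+/- controls at 16 days post partum (dpp). They were found as every probe whose annotated gene symbol begins with a histone gene prefix (Hist1h to Hist4h, H1f, H2af or H3f3, or the newer H2ac, H2bc, H3c, H4c, H2ax and H2az), which gave 64 of the 19057 genes with an annotated probe, read by 95 of the array's 45281 probes, all 95 of them matched to the RefSeq gene table. The RNA came from 4 Tex19.1+/- and 4 Tex19.1-/- testes. The study had backcrossed the mutation to C57BL/6 for a few generations, in order to lessen the genetic variation between animals. The RNA was hybridised, 1 animal to an array, to the Mouse WG-6 v2.0 bead arrays of Illumina, which have 1 colour. The sample labels give all 4 controls as Tex19.1+/-, with 1 mutant allele, while the study's methods describe its control littermates as wild-type or heterozygous, and the groups here follow the labels. The probe for Tex19.1 itself read 8.36, 8.32, 7.88 and 7.99 (log2 signal) in Tex19.1+/- animals 1 to 4 and 5.36, 5.72, 5.57 and 5.54 in Tex19.1-/- animals 1 to 4, where no array detected it. The log2 change, Tex19.1-/- minus Tex19.1+/-, was -2.59 (limma adjusted p = 6.3e-07, n = 4 and 4). Since the Tex19.1-/- signal was not detected, the Tex19.1+/- signal is also given as at least 4.33 times higher. That bound is set by the weakest signal still detected and was not itself tested.

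Histones package DNA into nucleosomes. Each nucleosome core holds a pair of each of H2A, H2B, H3 and H4, and linker histone H1 binds the DNA between cores. Most histone genes are replication-dependent: they lie in clusters, are transcribed in S phase and their mRNAs end in a stem-loop in place of a poly(A) tail. Replacement variants (H3.3, H2A.Z, H2A.X, H1.X and others) are for the most part made through the cell cycle from ordinary polyadenylated mRNAs. In the male germ line a further set of variants (H1t, TH2A, TH2B and H1t2) joins chromatin in meiosis and in spermatids before protamines take over. The labelling kit primes cDNA from poly(A) tails, so signal from a stem-loop mRNA rests on whatever polyadenylated or internally primed transcript was present, and the probe sequences, which would show what each probe of a near-identical family can bind, were not used here.

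Of the 95 probes, 62 probes of 48 genes were kept because at least 1 array detected them (detection p under 0.01), and 50 were detected on all 8 arrays. By class, 50 of 76 replication-dependent core probes were kept, 4 of 6 replication-dependent linker probes, 8 of 8 replacement variant probes and 0 of 5 germ cell variant probes. Of the replication-dependent genes on the array, 44 lie on chromosome 13 and 9 on chromosome 3.

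Promoter windows (250 bases before to 50 after the gene start, RefSeq, GRCm38.p6) were found for 58 of the 64 genes. H2ax, H2bc21, H2bc4, H3c1, H3c7 and H4c14 had none. They are shown for 3 H2A genes whose signals moved together between animals (H2ac12, H2ac7 and H2ac10). An H2A gene outside that set (H2ac18) is also shown, with 2 testis variants (H2bc1, which encodes TH2B, and H1f6, which encodes H1t). Capitals mark 4 short motifs on either strand: the box CCAAT, the element TATAAA, the octamer ATGCAAAT known from H2B promoters, and the element AAACACA known from H1 promoters. No base of the windows shown belonged to more than 1 motif.
H2ac12, chr13:22035594-22035893, minus strand: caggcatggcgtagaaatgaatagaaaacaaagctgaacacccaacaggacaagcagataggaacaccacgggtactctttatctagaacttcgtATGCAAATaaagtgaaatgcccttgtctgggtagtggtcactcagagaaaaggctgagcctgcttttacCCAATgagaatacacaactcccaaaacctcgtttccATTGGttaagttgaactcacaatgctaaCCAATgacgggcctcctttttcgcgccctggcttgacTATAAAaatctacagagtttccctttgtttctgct
H2ac7, chr13:23574131-23574430, plus strand: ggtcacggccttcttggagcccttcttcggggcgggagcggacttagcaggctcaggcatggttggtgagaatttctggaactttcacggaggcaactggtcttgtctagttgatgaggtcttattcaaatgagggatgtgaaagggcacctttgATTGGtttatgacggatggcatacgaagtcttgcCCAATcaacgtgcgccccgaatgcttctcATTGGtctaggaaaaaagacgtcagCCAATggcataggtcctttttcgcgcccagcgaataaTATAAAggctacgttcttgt
H2ac10, chr13:23533625-23533924, plus strand: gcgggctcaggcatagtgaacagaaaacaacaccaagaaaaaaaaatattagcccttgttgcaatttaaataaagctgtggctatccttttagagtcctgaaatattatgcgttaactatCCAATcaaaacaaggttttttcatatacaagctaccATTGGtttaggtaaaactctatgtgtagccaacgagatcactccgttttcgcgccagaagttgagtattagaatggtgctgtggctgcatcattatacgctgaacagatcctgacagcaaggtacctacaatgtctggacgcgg
H2ac18, chr3:96245247-96245546, plus strand: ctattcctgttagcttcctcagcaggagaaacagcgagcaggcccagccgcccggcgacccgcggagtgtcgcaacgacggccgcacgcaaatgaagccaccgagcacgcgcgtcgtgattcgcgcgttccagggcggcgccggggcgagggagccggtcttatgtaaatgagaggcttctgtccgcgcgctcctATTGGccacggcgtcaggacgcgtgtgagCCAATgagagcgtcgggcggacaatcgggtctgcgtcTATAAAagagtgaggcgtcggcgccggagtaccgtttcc
H2bc1, chr13:23934107-23934406, minus strand: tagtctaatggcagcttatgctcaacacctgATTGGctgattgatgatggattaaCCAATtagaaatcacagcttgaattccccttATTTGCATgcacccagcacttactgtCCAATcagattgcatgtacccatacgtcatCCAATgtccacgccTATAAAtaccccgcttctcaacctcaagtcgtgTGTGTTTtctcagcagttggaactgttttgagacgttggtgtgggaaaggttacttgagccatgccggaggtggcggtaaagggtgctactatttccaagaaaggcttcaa
H1f6, chr13:23695561-23695860, plus strand: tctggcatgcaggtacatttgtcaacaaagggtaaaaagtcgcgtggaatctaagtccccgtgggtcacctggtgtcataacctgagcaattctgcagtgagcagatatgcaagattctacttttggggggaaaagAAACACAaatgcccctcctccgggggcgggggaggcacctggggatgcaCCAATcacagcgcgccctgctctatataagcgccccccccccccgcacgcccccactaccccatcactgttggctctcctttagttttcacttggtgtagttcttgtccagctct

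CCAAT stood in the windows of 48 of the 58 histone genes (82.8%) and in 37.8% of all 27025 promoter windows. TATAAA stood in 55.2% of the histone windows against 14.1% of all windows. ATGCAAAT was found in 6 of 10 replication-dependent H2B windows, in 14 of the 58 histone windows and in 1.74% of all windows. It also stood in 2 of the 9 H2A genes that moved together and in 3 of 6 other replication-dependent H2A genes. Of the germ cell variants, 2 of 5 held it. AAACACA was found in 4 of 5 replication-dependent linker windows, in 3 of 5 germ cell variant windows and in 7.25% of all windows. All 9 H2A genes that moved together between animals and all 6 other replication-dependent H2A genes held CCAAT, and TATAAA stood in 5 of the 9 and in 5 of the 6. These are matches of letters only and were not measured as binding sites.

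The 5 germ cell variants with a member probe gave no detectable signal in either genotype. H1f6 (H1t, a linker histone of pachytene spermatocytes and early spermatids) read 5.78, 5.76, 5.69 and 5.65 in Tex19.1+/- and 5.82, 5.69, 5.86 and 5.91 in Tex19.1-/- animals 1 to 4. H2bc1 (TH2B) read 5.74, 5.49, 5.51 and 5.54 in Tex19.1+/- and 5.50, 5.42, 5.51 and 5.59 in Tex19.1-/- animals. These values overlapped, and each of them was below the detection threshold.
H2ac1 (TH2A, whose gene lies head to head with H2bc1) ranged from 5.74 to 5.92 in Tex19.1+/- and from 5.62 to 5.90 in Tex19.1-/- testes. H1f7 (H1t2, a spermatid linker histone) ranged from 5.71 to 5.98 and from 5.49 to 5.96. H1f8, the oocyte linker histone, ranged from 5.31 to 5.75 and from 5.27 to 5.73. None of the 5 probes was tested, since none was detected on any of the 8 arrays, and an undetected probe does not show that the mRNA was absent.
Some marker genes of pachytene spermatocytes and of spermatids were detected. The labelling primes from poly(A) tails, and whether the mRNAs of these variants carry them was not tested. In a list of mid to late pachytene markers 16 of 20 genes on the array were kept and 10 were called lower in Tex19.1-/- testes (adjusted p of at most 0.01, limma, beside 1.63% of all kept probes), with a summed linear signal of 18124 to 27885 in Tex19.1+/- and 6587 to 10718 in Tex19.1-/- animals. The kept markers include Hspa2, which is also in a histone pathway list below. In whole testis, fewer cells of a type and less RNA per cell cannot be told apart. The 10 calls became 0 with each array scaled to a common median, 1 with signals under 1 set to 1 and 4 with an intensity trend in the variance, while the list's median log2 change of -1.33 was -1.11, -2.31 and -1.33 in those fits. In a list of spermatid genes 6 of 18 were kept. In a separate list of histone removal genes, Tnp1, Tnp2 and Prm1 were not detected. They encode the transition proteins and protamine that replace histones in spermatids.

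No histone probe passed the test between genotypes. At an adjusted p of at most 0.01 (limma, Benjamini-Hochberg over all 19089 kept probes), 0 of the 62 histone probes were lower and 0 were higher in Tex19.1-/- testes, beside 1.63% of all kept probes that were lower and 0.141% that were higher. At an unadjusted p under 0.05, 4 histone probes were lower and 0 higher, where 7.93% of all kept probes were lower and 5.87% higher. Every Tex19.1-/- animal lay below every Tex19.1+/- animal for 1 histone probe (6.06% of all kept probes) and above for 1 (4.18% of all kept probes). The smallest adjusted p was 0.073. The changes of the 62 probes ran from -0.43 to 0.44 (log2, Tex19.1-/- minus Tex19.1+/-), with 20 below and 42 above zero and a median of 0.06. Over all kept probes 8383 were below and 10706 above zero, with a median of 0.02. Several probes read 1 gene and several genes of a type are near-identical in sequence, so these counts are not counts of independent genes.

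**Figure D1:**
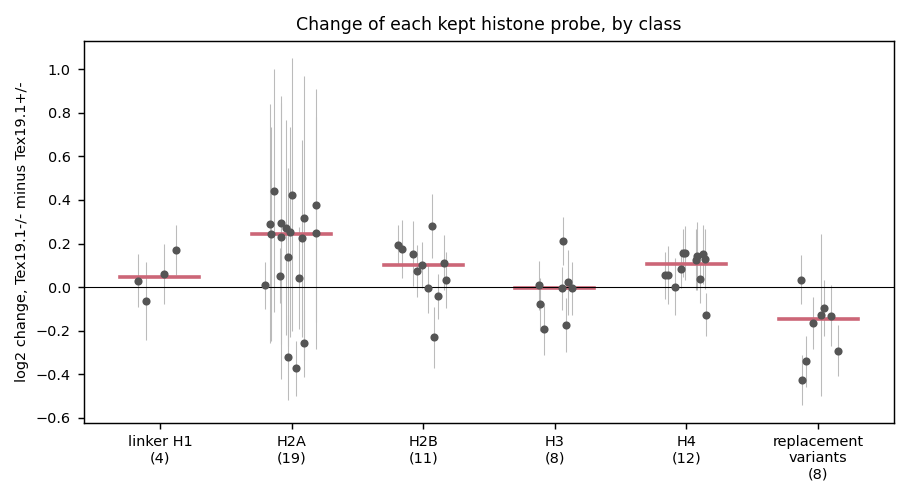
Log2 change (Tex19.1-/- minus Tex19.1+/-, 4 animals each) of each of the 62 kept histone probes, by class, with its standard error from limma as a grey bar. Red lines are class medians, which run from -0.15 for the 8 replacement variant probes to 0.24 for the 19 replication-dependent H2A probes, the class that also has the widest error bars.

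The replication-dependent genes were the largest class. Of the 54 kept probes, 13 were below and 41 above zero, with a median log2 change of 0.09. Over all 19089 kept probes 8383 were below and 10706 above zero. The 41 include the 13 H2A probes described below, which moved together between animals, so the split is not a count of independent changes. The median was 0.24 over the 19 H2A probes, 0.10 over 11 H2B probes, -0.01 over 8 H3 probes, 0.11 over 12 H4 probes and 0.04 over 4 linker probes. The median over the 50 core probes, 0.11, was -0.07 when Tex19.1+/- animal 2 was left out and 0.05 when both animals numbered 2 were left out. In a list of S phase and proliferation genes 24 of 28 were kept, 0 were called in either direction and the median log2 change was 0.08.

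The main feature of the replication-dependent genes was variation between animals of the same genotype, and among the histones it fell on H2A. In 13 probes of 9 H2A genes, animal 2 of each genotype lay at least 1 log2 unit below each of the 3 other animals of that genotype. The same held for 36 of the 19089 kept probes (0.189%), so that 13 of those 36 were H2A probes. Of the other 23, 12 were annotated to non-histone genes, among them Eef2 with 2 probes, Ddx6, Smc2, Usp37, Hdlbp, Gsn and Pdpk1, and 11 had no gene symbol. The within-genotype SD of those without a symbol reached 1.91 log2 units, above that of any H2A probe. For no kept probe did both animals numbered 2 lie at least 1 log2 unit above the others. The pattern was noticed after the values were seen and is given with no test.
H2ac12 (probe ILMN_2730329) read 10.54, 7.97, 11.25 and 10.75 in Tex19.1+/- animals 1 to 4 and 11.19, 8.65, 10.73 and 11.22 in Tex19.1-/- animals 1 to 4. H2ac15 read 10.62, 8.03, 11.18 and 10.90 in Tex19.1+/- animals and 11.30, 8.96, 10.94 and 11.23 in Tex19.1-/- animals. H2ac24 read 12.76, 10.80, 13.62 and 13.48 in Tex19.1+/- animals and 13.48, 11.55, 13.37 and 13.43 in Tex19.1-/- animals. In each of these probes animal 2 was the lowest of its genotype and the remaining animals of both genotypes overlapped.
H2ac7 (ILMN_1226839) read 12.22, 10.26, 12.91 and 12.45 in Tex19.1+/- animals and 12.80, 10.67, 12.61 and 12.75 in Tex19.1-/- animals. H2ac13 (ILMN_1238276) read 10.87, 8.55, 10.97 and 10.83 in Tex19.1+/- animals and 11.22, 9.40, 10.55 and 11.03 in Tex19.1-/- animals. The other genes of the set were H2ac10, H2ac11, H2ac20 and H2ac22, all but H2ac20 on chromosome 13.
As a mean over the 13 probes, the Tex19.1+/- animals stood at 10.85, 8.81, 11.45 and 11.15 and the Tex19.1-/- animals at 11.48, 9.40, 11.10 and 11.44. Animal 2 fell short of the mean of the other 3 animals of its genotype by 1.64 to 2.97 log2 units in Tex19.1+/- (median 2.34, 5.06-fold) and by 1.53 to 2.40 in Tex19.1-/- testes (median 1.97, 3.93-fold). The within-genotype SD of these probes was 0.84 to 1.35 log2 units. Over all kept probes its median was 0.16 and its 99th percentile 0.52, and of the 62 histone probes only these 13 and the H2ax probe lay above that percentile.

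**Figure D2:**
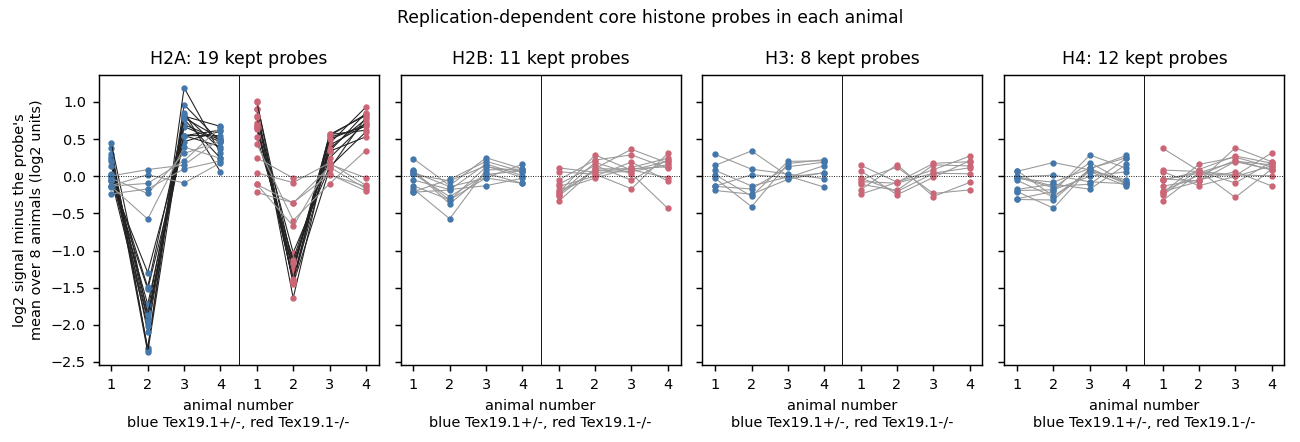
Log2 signal of each kept replication-dependent core histone probe, as its difference from that probe's mean over 8 animals, by animal number (blue Tex19.1+/-, red Tex19.1-/-), with 1 line per probe and genotype. The 13 H2A probes drawn in black drop in animal 2 of both genotypes, while the 11 H2B, 8 H3 and 12 H4 probes stay within about 0.6 log2 units of their means.

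The other core histone types did not show it. The gap of animal 2 below the other animals was at most 0.58 log2 units in Tex19.1+/- and 0.08 in Tex19.1-/- for the 11 H2B probes, at most 0.53 and 0.34 for the 8 H3 probes and at most 0.48 and 0.19 for the 12 H4 probes. The gaps also differed between neighbours that share a promoter region, but not all of the H2B probes read far above background. H2ac12 and H2bc12 start 178 bases apart on opposite strands, and animal 2 was 2.87 and 2.40 log2 units low for H2ac12 (ILMN_2730329) but 0.17 and 0.04 for H2bc12 (ILMN_2636781). H2ac15 and H2bc15 start 164 bases apart, with gaps of 2.88 and 2.20 for H2ac15 against 0.11 and -0.13 for H2bc15. H2ac11 and H2bc11 start 249 bases apart, with gaps of 1.86 and 2.00 for H2ac11 against 0.32 and -0.04 for H2bc11. H2ac7 and H2bc7 start 174 bases apart, with gaps of 2.97 and 2.08 for H2ac7 (ILMN_2795040) against 0.58 and -0.10 for H2bc7.
Probes of 1 gene also differed. H2ac20 (ILMN_1218380) read 12.42, 10.47, 13.11 and 12.90 in Tex19.1+/- and 13.08, 11.12, 12.98 and 13.23 in Tex19.1-/- animals. Its other probe (ILMN_1254276) read 6.49, 6.56, 6.83 and 6.93 in Tex19.1+/- and 6.98, 6.70, 6.75 and 6.59 in Tex19.1-/- animals, with no low value in animal 2. That level, too, is near the array median of 5.73, where such a drop could not fully show. The 6 other kept H2A probes had gaps of at most 0.74 and 0.82, the largest of them in H2ac21. H2ac21 read 6.01 and 5.99 in animals 2, also near that median. Smaller gaps in the same direction were 0.34 and 0.68 for H2ac18 (ILMN_1231053) and 0.48 and 0.31 for H2ac19. They were 0.13 and 0.23 for the second kept H2ac18 probe, and -0.033 and 0.12 for H2ac4.
The mean signal of the 8 arrays ranged from 79.0 to 159 and the number of detected probes from 13720 to 15876. The arrays of animals 2, which are among those 8, had mean signals of 152 and 115 with 15135 and 14668 probes detected. Over all kept probes, the deviations of animals 2 from their group means correlated at 0.52 between genotypes. That was the highest value of the same-numbered animals, so what these animals share is not confined to the histone probes. None of the kept genes of the 16 marker and pathway lists met the same measure, but Mcm7, a replication helicase subunit of the S phase list, came near it. It read 7.65, 6.19, 7.71 and 7.73 in Tex19.1+/- and 7.71, 6.71, 7.55 and 7.90 in Tex19.1-/- animals, so that animal 2 was 1.51 and 1.01 log2 units below the mean of the others. The other helicase subunits in the lists did not share this gap. It was -0.25 and -0.28 for Mcm2, -0.35 and -0.45 for Mcm3 and -0.38 and -0.22 for Mcm6, with animal 2 the higher. For Mcm4 it was -0.0041 and 0.072, and for Mcm5 0.13 and 0.12. Some list genes of other kinds had gaps in both genotypes, among them Ccnd2 (0.94 and 0.83), Kitl (0.82 and 0.72) and Sall4 (0.78 and 0.64). Others had animal 2 the higher in both, among them Top2a (-0.52 and -0.88) and Nasp (-0.55 and -0.75). The labels do not say what the replicate numbers stand for, and whether the low H2A values follow the animals or the handling of their RNA was not tested.

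**Figure D3:**
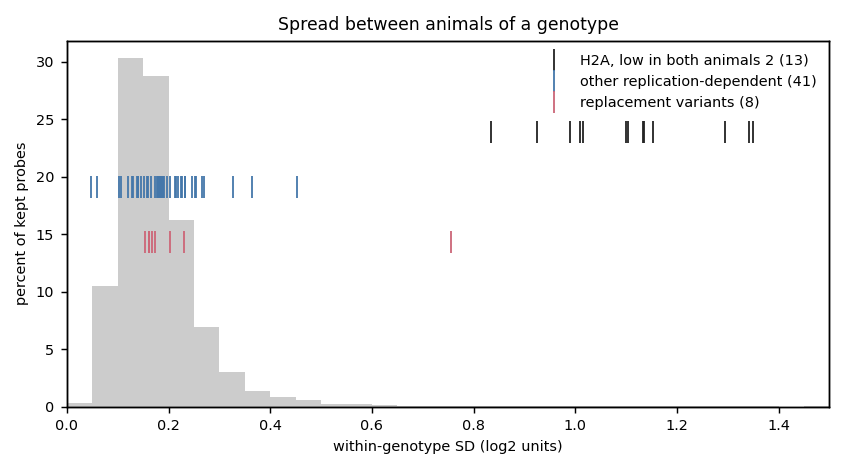
Within-genotype SD (log2 units) over all kept probes as a grey histogram (percent of kept probes per bin of 0.05), with the kept histone probes as ticks. The 13 H2A probes sit between 0.84 and 1.35, H2ax at 0.75, and the others within the main body of the histogram or at its upper edge.

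The comparison of genotypes had wide errors for these H2A probes. Their log2 changes between genotypes were 0.14 to 0.44 with standard errors of 0.41 to 0.65 and adjusted p of 0.79 to 0.92. Without both animals numbered 2 the changes were 0.01 to 0.30, the standard errors 0.16 to 0.26 and the adjusted p 0.48 to 0.99. With the replicate number as a block the standard errors were 0.12 to 0.24 and the adjusted p 0.13 to 0.65, so that none of the 13 probes passed in any of the 3 fits.

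Among the remaining replication-dependent core genes, the probes with the largest moderated t were on both sides of zero. H2ac18 (ILMN_2751948), 1 of the H2A genes on chromosome 3, read 7.86, 7.94, 8.004 and 8.36 in Tex19.1+/- and 7.63, 7.50, 7.88 and 7.66 in Tex19.1-/- animals. The groups overlapped by 1 animal, and the log2 change was -0.37 ± 0.13 (SE, limma adjusted p = 0.17), or -0.15 with each array scaled to a common median (median scaling). It was -0.56 (limma adjusted p = 0.042) with median scaling when the lowest probe was also left out of the constant added to each array. That setting was chosen after seeing the data. Its other kept probe (ILMN_1231053) gave -0.32 ± 0.19 (adjusted p = 0.52), and its neighbour H2ac19, which is nearly identical in sequence, gave -0.26 ± 0.15 (adjusted p = 0.51).
H2bc21 (ILMN_1253851), an H2B gene of the chromosome 3 cluster, read 6.52, 6.39, 6.44 and 6.54 in Tex19.1+/- and 6.68, 6.62, 6.63 and 6.73 in Tex19.1-/- animals. The groups did not overlap, but the log2 change was 0.19 ± 0.09 and did not pass the test (adjusted p = 0.38). H2bc7 on chromosome 13 gave 0.28 ± 0.15 (adjusted p = 0.43), with animals from 8.42 to 9.09 in Tex19.1+/- and from 8.94 to 9.28 in Tex19.1-/- testes. H3c7, an H3 gene, gave 0.21 ± 0.11 (adjusted p = 0.42).

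The linker histone subtypes differ in how tightly they bind chromatin, and of their genes only H1f2 was detected on every array. H1f2 (ILMN_2855315) read 8.37, 8.77, 8.55 and 8.63 in Tex19.1+/- and 8.56, 8.72, 8.92 and 8.80 in Tex19.1-/- animals. The groups overlapped and the log2 change was 0.17 ± 0.12 (adjusted p = 0.57). The second H1f2 probe (ILMN_2774537) gave -0.06 ± 0.18 (adjusted p = 0.92), so the probes differ in sign. H1f1, detected on 2 arrays, gave 0.03 ± 0.12, and H1f5, detected on 3, gave 0.06 ± 0.14. H1f3 and H1f4 were not detected, and no annotated probe for H1f0 was found.

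The replacement variants were detected on all 8 arrays, and 7 of their 8 probes were below zero, with a median of -0.15. This direction depended on the scaling: with each array scaled to a common median in place of quantile normalization, the median over the 8 probes was 0.16, while the median over all kept probes moved from 0.02 to 0.14.
H3f3a encodes H3.3, the H3 variant placed in transcribed chromatin outside S phase. Its probe ILMN_3066986 read 8.30, 8.38, 8.34 and 8.77 in Tex19.1+/- and 8.07, 8.08, 7.999 and 7.93 in Tex19.1-/- animals. The groups did not overlap and the log2 change was -0.43 ± 0.12 (1.34-fold lower), which did not pass the test (adjusted p = 0.073). It was -0.18 (adjusted p = 0.79) with median scaling and -0.61 (adjusted p = 0.048) with median scaling and the lowest probe left out of the added constant. The other H3f3a probe (ILMN_3145213) read 11.36, 11.67, 11.22 and 11.41 in Tex19.1+/- and 11.46, 11.60, 11.32 and 11.42 in Tex19.1-/- animals. These groups overlapped throughout and the log2 change was 0.03 ± 0.11 (adjusted p = 0.93), so the 2 probes of H3f3a disagreed.
H3f3b, the second gene for H3.3, read 10.53, 10.45, 10.20 and 9.98 in Tex19.1+/- and 10.23, 10.39, 9.88 and 10.15 in Tex19.1-/- animals. The groups overlapped and the log2 change was -0.13 ± 0.14 (adjusted p = 0.74).
H1f10 encodes H1.X, a replication-independent linker histone. ILMN_3122845 read 8.14, 8.21, 7.76 and 7.95 in Tex19.1+/- and 7.64, 7.53, 7.72 and 7.81 in Tex19.1-/- animals. The log2 change was -0.34 ± 0.12 (adjusted p = 0.18), and the second probe (ILMN_1247646) gave -0.29 ± 0.12 (adjusted p = 0.26). Both probes pointed the same way, but in each of them the groups overlapped, and with median scaling both changes were -0.10.
H2az1 and H2az2 encode the forms of H2A.Z, the variant found beside transcription start sites. H2az1 read 10.32, 10.60, 10.33 and 10.55 in Tex19.1+/- and 10.28, 10.56, 10.12 and 10.18 in Tex19.1-/- animals, a log2 change of -0.16 ± 0.12 (adjusted p = 0.60). H2az2 gave -0.10 ± 0.13 (adjusted p = 0.80).
H2ax encodes H2A.X, which is phosphorylated at DNA double-strand breaks and over the sex chromosomes in meiosis. It read 8.89, 8.96, 8.67 and 7.90 in Tex19.1+/- and 9.49, 8.41, 8.77 and 7.22 in Tex19.1-/- animals. Animal 4 was the lowest in each genotype, and the log2 change of -0.13 ± 0.37 was far smaller than the spread between animals (adjusted p = 0.92). Without Tex19.1-/- animal 4 the change was 0.29 (adjusted p = 0.78).

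**Figure D4:**
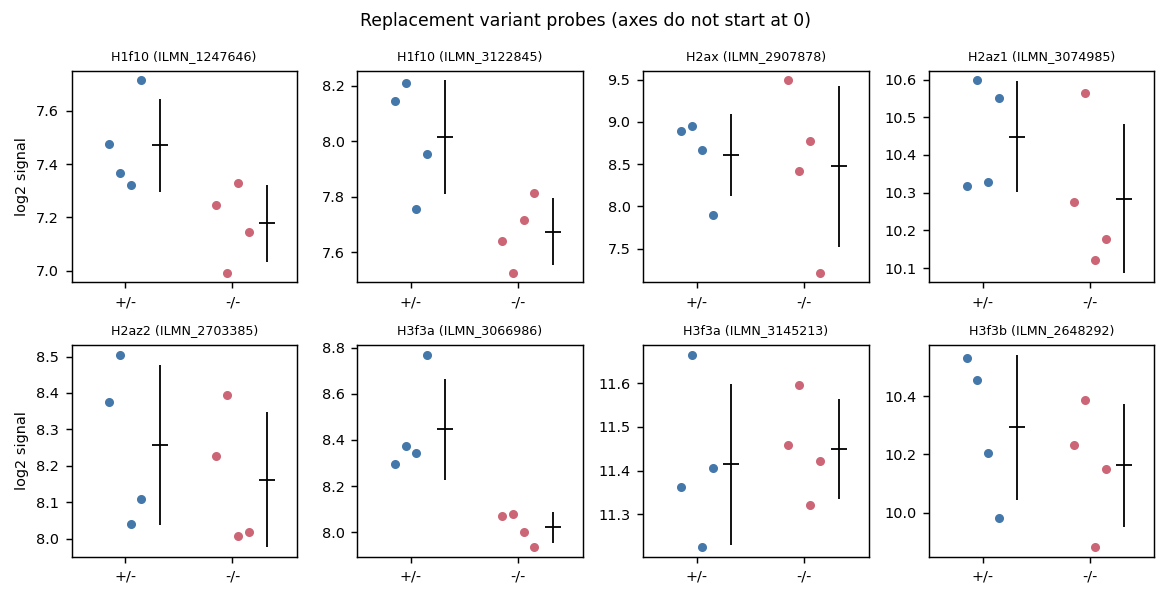
Log2 signal of the 8 replacement variant probes in each Tex19.1+/- (blue) and Tex19.1-/- (red) animal, left to right animals 1 to 4, with the mean and SD of 4 animals in black. The groups separate for H3f3a ILMN_3066986 (adjusted p = 0.073) and overlap for the other probes, and H2ax has the widest spread.

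Variant histones with other symbols were also measured. Macroh2a1, the H2A variant with a large non-histone domain, gave changes of 0.03 to 0.19 over 3 probes, none of them called. H2aj (ILMN_2524980), an H2A variant gene outside the clusters, read 7.05, 6.95, 6.95 and 7.09 in Tex19.1+/- and 7.25, 7.22, 7.20 and 7.25 in Tex19.1-/- animals. These groups did not overlap, yet the change of 0.22 ± 0.09 did not pass the test (adjusted p = 0.29), and the 2 other H2aj probes gave 0.04 and 0.06. Of further testis variants, H2ab2 was not detected and H2al2a, detected on 3 arrays, gave -0.02.

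The genes that make and handle histones were read from 3 lists, and 0 of their 39 kept genes were called in either direction, with 5 lower and 0 higher at an unadjusted p under 0.05. Over all kept probes 1.63% were called lower and 0.141% higher, and at the unadjusted p 7.93% were lower and 5.87% higher. Among genes for histone transcription and 3' end processing 6 of 12 were kept. Sympk, which encodes the scaffold protein of the cleavage complex, gave -0.30 ± 0.10 (adjusted p = 0.15). Cstf2, a cleavage stimulation factor subunit, gave 0.35 ± 0.17 (adjusted p = 0.38), and Zfp473 and Lsm11, components that act with the U7 snRNP, gave -0.21 and -0.26. Slbp, which binds the stem-loop, and Npat, which drives histone gene transcription in S phase, were not detected.
Among histone chaperones and exchange factors 25 of 28 were kept. Chaf1a, the large subunit of the CAF-1 complex that places H3 and H4 on newly replicated DNA, read 8.08, 8.43, 8.19 and 8.60 in Tex19.1+/- and 7.57, 8.04, 7.81 and 7.88 in Tex19.1-/- animals. The groups did not overlap, and the log2 change was -0.50 ± 0.14 (adjusted p = 0.070), or an adjusted p of 0.0093 with the replicate number as a block. Znhit1, of the complex that exchanges H2A.Z, gave -0.60 ± 0.16 (adjusted p = 0.062). Hjurp and Cenpa, the chaperone and the centromeric H3 variant it carries, gave -0.26 and 0.18.
Among genes of histone removal in spermatids 8 of 15 were kept. Brdt, a testis bromodomain protein that binds acetylated histones, read 8.27, 8.40, 8.25 and 8.81 in Tex19.1+/- and 7.68, 7.43, 7.99 and 7.77 in Tex19.1-/- animals. The groups did not overlap and the log2 change was -0.72 ± 0.15 (1.64-fold lower, adjusted p = 0.015), which passed in 3 of the other fits run, among them those with the replicate number as a block (adjusted p = 0.0046) and with an intensity trend in the variance (adjusted p = 0.010). Hspa2, a testis heat shock protein, gave -0.65 ± 0.15 (adjusted p = 0.028). Cdyl gave 0.14 ± 0.14 and Psme4, the proteasome activator PA200, gave -0.05 ± 0.12. The pachytene markers were lower in these Tex19.1-/- testes as given above. Hspa2 is itself in that marker list and in its summed signal, so its change is not a separate result. The part of the marker cells in the values of Brdt and Hspa2, which spermatocytes express, was not tested.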

How the data were processed

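Total RNA of 8 whole testes was labelled as biotinylated cRNA and hybridised to 8 bead arrays. The deposited intensity values are linear, background-subtracted probe signals from BeadStudio (its version is not stated by any source used here), and the deposited p-values are its detection p-values. The authors also deposited log2 values, log-transformed and quantile-normalized in lumi, which were used as an alternative. For the report a constant was added to each array so that its lowest signal was 1, and log2 signals were brought to a common distribution by quantile normalization. The 19089 of 45281 probes that any array detected (detection p under 0.01) were kept. The genotype difference was fitted in limma 3.58.1 (lmFit, eBayes, under R 4.3.3), with 6 residual degrees of freedom, Benjamini-Hochberg adjustment over all kept probes, and calls at an adjusted p of at most 0.01. The number of arrays limits the precision, and p-values measure the spread between these samples, whose litters the labels do not give.

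Probes were named by the platform annotation, with symbols updated through Entrez IDs from the RefSeq gene table (34885 probes with 1 symbol, 18 with several, not used, and 10378 with none). For list genes the kept probe with the highest mean was used. Sequences are from RefSeq promoter windows (GRCm38.p6). Members and lists were chosen with earlier results of these data known. Named are every testis variant, the 6 kept probes of each class with the largest moderated t in size, H2ax, H2az1, H3f3a, H3f3b and H1f0, and the 4 list genes of each pathway list with the largest t. The H2A genes that vary between animals, the H2A and H2B neighbours, and the variants with other symbols were singled out after their values were seen. The fit was tested on simulated data.

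Same-numbered animals of both genotypes deviated together from their group means (correlations of 0.21, 0.52, 0.10 and 0.23 for numbers 1 to 4). Tex19.1+/- animal 4 correlated at 0.45 with Tex19.1-/- animal 3, and Tex19.1+/- animal 3 at 0.23 with Tex19.1-/- animal 4. Whether the numbers mark pairs is not given by the labels. The main fit has no block, so its errors and adjusted p-values do not use these numbers. The fit with the replicate number as a block is an alternative. Alternatives covered scaling, background, filters, the variance model, array weights, the replicate block and leaving out animals.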

Additional observations from a re-analysis of the deposited data

Results flagged for a closer look

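In 8 of 62 sets of 4 animals examined (31 named or H2A probes, each in both genotypes), 1 animal stood apart from the other 3 of its genotype by more than the Dixon criterion for 4 values (the gap to the nearest animal over the whole range). Chance flags about 1 in 20 sets of 4, but 26 of the 62 sets belong to the 13 H2A probes, which were picked for a low animal 2, so no rate is read from these counts. Of the 8, 7 were the low values of animal 2 in the H2A probes. In the Tex19.1-/- group they were H2ac15 at 8.96 (other animals 10.94 to 11.30), H2ac24 at 11.55 (13.37 to 13.48), H2ac20 at 11.12 (12.98 to 13.23), H2ac7 at 10.67 (12.61 to 12.80), H2ac11 at 6.62 (8.49 to 8.70) and H2ac10 at 11.33 (12.79 to 12.99). In the Tex19.1+/- group it was H2ac13 at 8.55 (10.83 to 10.97).

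The remaining value was H3f3a (ILMN_3066986) in Tex19.1+/- animal 4, at 8.77 where the other 3 animals read 8.30 to 8.38. Without that animal the log2 change of the probe was -0.32, the smallest size over the leave-one-out fits.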

How the results depend on the processing

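The counts of histone probes called lower or higher stayed at 0 under every alternative run, including an adjusted p of at most 0.05 in the main model. At that looser threshold, H2ac18 (ILMN_2751948) and H3f3a (ILMN_3066986) passed with the lowest probe left out of the shift and median scaling. Their limma adjusted p there was 0.042 and 0.048. The count of pathway genes called lower, 0 in the report, was 2 with the replicate number as a block (Chaf1a and Brdt), 1 with an intensity trend and robust variance (Brdt) and 2 with the lowest probe left out of the shift and median scaling (Znhit1 and Brdt), a setting chosen after seeing the data. It was 0 whichever single animal was left out. With the block, the pairing of animals by number left the histone counts at 0, and the calls lower were 11 in the mid to late pachytene list and 3 in the spermatid list, against 10 and 2. The causes were not tested. Over all kept probes the 311 lower and 27 higher calls became 470 and 48 with the block, 1 and 0 with median scaling and 20 and 1 with signals under 1 set to 1.

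No histone probe was called in any fit, so every change of sign was in a probe that was not called. Over the named probes and the alternatives the sign was reversed 26 times. With median scaling H2az1 was 0.18, H3f3b 0.21, H2az2 0.17, H2ac19 0.093, H2ac18 (ILMN_1231053) 0.013, H1f2 (ILMN_2774537) 0.21 and H2ax 0.16. With the lowest probe left out of the shift and median scaling, which moved the median of all kept probes to -0.07, H1f2 (ILMN_2855315) was -0.011, H1f1 -0.016 and H3f3a (ILMN_3145213) -0.097. With signals under 1 set to 1, H1f5 and H1f1 were both -0.14. Cyclic loess gave -0.029 for H1f1 and -0.012 for H3f3a (ILMN_3145213), and array weights gave -0.0085 for H1f1. Without both animals numbered 2, an alternative also chosen after seeing the data, H1f5 was -0.053, H1f1 -0.0086 and H2ax 0.0086. Leaving out 1 animal at a time gave -0.014 to 0.20 for H1f5, -0.19 to 0.093 for H1f2 (ILMN_2774537), -0.060 to 0.12 for H1f1, -0.47 to 0.29 for H2ax and -0.029 to 0.12 for H3f3a (ILMN_3145213). H1f1 and H1f5 were detected on 2 and 3 arrays, so their values lie near background.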
